A study of Sus scrofa with 8 samples.

Results

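The genes described here are 10 genes of endothelial cells, the cells that line blood vessels: PECAM1, CD34, TIE1, TEK, KDR, FLT1, ENG, VWF, EDN1 and EDNRB. They were taken by name, as all probe sets whose single gene symbol in the platform annotation is 1 of these names (Entrez genes 396941, 397160, 494022, 396729, 397311, 396763, 397096, 399543, 396915 and 414911, in the same order). All 10 genes were found, with 19 probe sets, among 6765 genes with a probe set of 1 symbol and 23999 probe sets other than controls. A probe set is a group of short oligonucleotides on the Affymetrix porcine GeneChip, and its fluorescence is given as 1 linear intensity per array. The arrays held RNA of islets from 4 pigs labelled 7-day-old and from 4 pigs labelled 3-day-old, with 1 array per pig. All pigs were male Duroc/Large White crosses with no genetic alteration given. In both groups the pancreas was digested with collagenase, and the released tissue spent 7 days in culture, in Ham's F10 with glucose, nicotinamide, isobutylmethylxanthine and albumin. The ages are therefore those of the pigs, and every islet sample had also been kept for this time without blood flow. The cultured preparation is a mixture of cell types. The study counted endocrine cells, their precursors and immune cells in such islets, but not vessel cells. Each intensity is a mean over all cells present, and fewer cells of a type and less RNA per cell cannot be told apart.

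Islets in the body are threaded by a dense net of fenestrated capillaries, whose endothelial cells receive vascular endothelial growth factor (VEGF) from the endocrine cells. VEGF acts through the receptor tyrosine kinases KDR and FLT1, and the angiopoietins act through TEK, which pairs with the related receptor TIE1. PECAM1 joins neighbouring endothelial cells, CD34 is a sialomucin of their surface, ENG is a co-receptor for ligands of the TGF-beta family, VWF is the adhesive protein that captures platelets, and EDN1 is a vasoconstrictor peptide read by receptors that include EDNRB. Several of these genes are also used outside endothelium, for example PECAM1 by platelets and leukocytes, CD34 by stromal and blood progenitor cells, and EDNRB by neural crest derivatives.

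The arrays were close to each other in level. Array medians lay between 171.6 and 178.5 and the 20th percentile, used here as the limit of low values, between 26.4 and 31.3. Log2 intensities correlated across probe sets at 0.944 to 0.955 between arrays of the same label and at 0.936 to 0.943 between arrays of different labels, where probe sets are not independent replicates. The comparison is the log2 difference, 7-day-old minus 3-day-old, tested with limma and adjusted by Benjamini-Hochberg over 21574 probe sets, with an adjusted p below 0.05 counted as passed. Of these probe sets 2305 passed, which is 10.7%, and the median log2 difference over all of them was -0.000779.

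Of the 19 probe sets, 7 reached the 20th percentile of the array on all 8 arrays, and these read 6 genes, PECAM1 (2 probe sets), CD34, FLT1, ENG, EDN1 and EDNRB. Another 8 reached it on 1 to 7 arrays, among them the only probe set of TIE1 and the best ones of TEK, KDR and VWF. The remaining 4 reached it on no array and were not tested. They are 2 of the 3 probe sets of TEK and 1 each of FLT1 and VWF. Of the endothelial genes outside the group, CDH5, CLDN5, ERG and ESAM, among others, reached the percentile on all 8 arrays. ICAM2 reached it on 7 arrays, and CALCRL was not tested. The percentile is a rank within an array that 16769 probe sets reached on all 8 arrays, so it is no test of presence. ESAM was at 28.6 in 7-day-old replicate 1, where the percentile was 27.7, whereas the lowest value of CDH5 was 140.5. Whether every sample held RNA of endothelial type was therefore not tested. VWF, KDR and TEK, which also define this cell type, were close to or under the limit on several arrays.

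**Figure D1:**
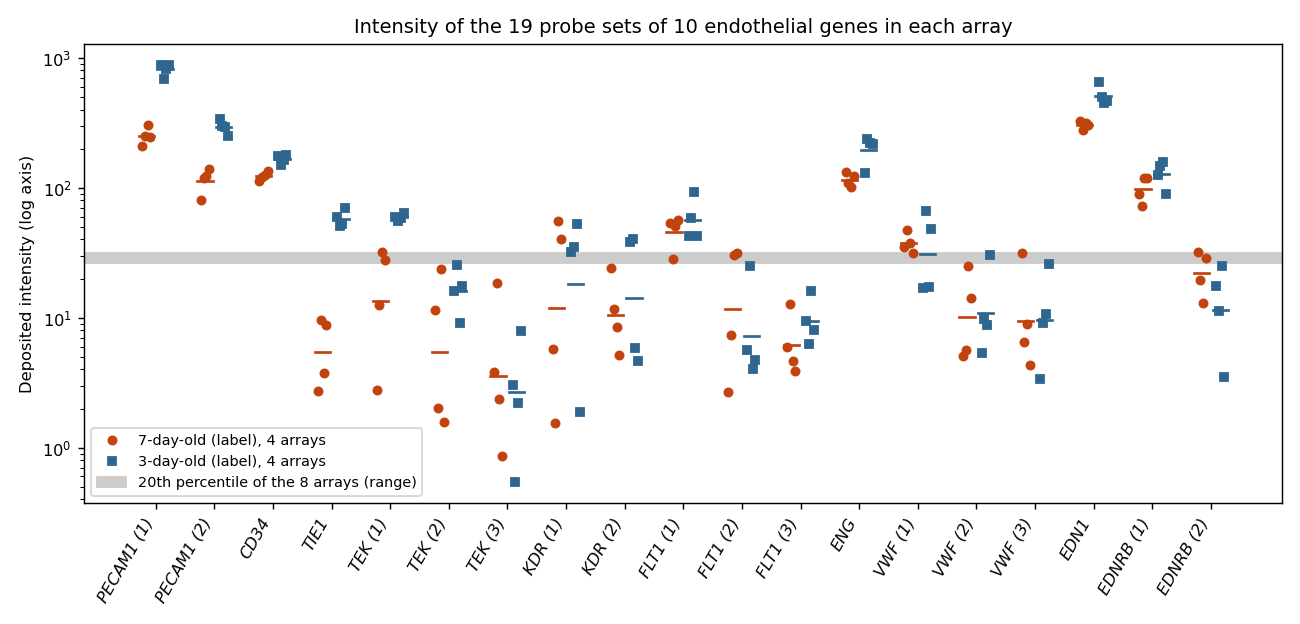
Deposited intensity (log axis) of the 19 probe sets of the 10 genes in the 4 arrays labelled 7-day-old (circles) and the 4 labelled 3-day-old (squares), with a line at each group's geometric mean. The grey band is the range of the arrays' 20th percentiles (26.4 to 31.3), and numbers in brackets distinguish probe sets of 1 gene. Both PECAM1 probe sets, CD34, TIE1, EDN1 and the first of TEK have all 7-day-old values below all 3-day-old values.

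The endothelial genes were lower in the arrays labelled 7-day-old where they differed. Of the 15 probe sets tested, 5 were lower in 7-day-old arrays, against 5.47% of all probe sets tested, and 0 were higher, against 5.21% of all. These 5 read PECAM1 (2 probe sets), TIE1, EDN1 and CD34. No probe set of the group was higher at an unadjusted p below 0.05 either, and the methods' t-test also gave 5 lower and 0 higher. The direction is that of the deposited sample labels, and it is opposite to the study's own list of changed genes, which places PECAM1 among the genes higher at 7 days. The conflict is not limited to PECAM1. Of the genes described below, THBD, CDH5, CAV1, TGFB1 and DCN are also listed as higher there, and NEUROD1 as lower, each opposite to the sign given here. The sources used here do not settle which of the labels or the list is exchanged. With the labels turned round, every sign given for the arrays would turn with them. The other 10 probe sets did not pass. Of the 15, 5 entered the test through arrays of 1 label only, one each of FLT1, VWF and EDNRB through 7-day-old arrays, and TIE1 and the second probe set of KDR through 3-day-old arrays. A count over the 15 is therefore only a description.

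The 7 probe sets that were above the limit on every array carry the comparison best. All 7 had a negative log2 difference, where 50.1% of all probe sets did, and their median was -0.74. Of these, 4 passed, against 6.41% lower among all probe sets that reach the percentile on all 8 arrays. Over the 15 tested probe sets 12 differences were negative and 3 positive, with a median of -0.45. In 6 probe sets every 7-day-old value lay below every 3-day-old value, against 10.3% of all probe sets, and in 0 was it the other way, against 10.9%.

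**Figure D2:**
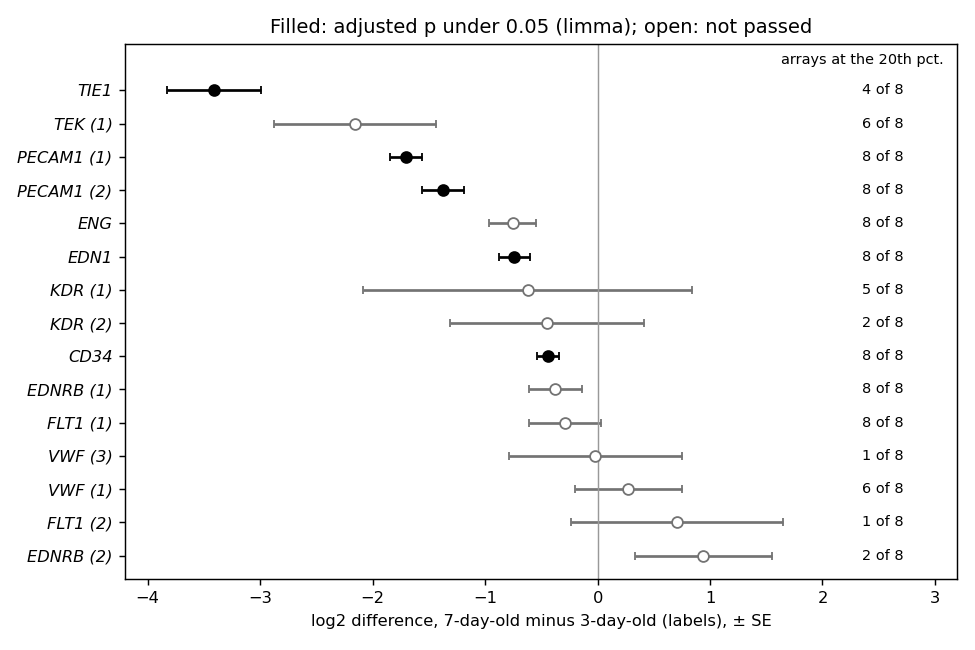
Log2 difference, 7-day-old minus 3-day-old, with its standard error for the 15 tested probe sets, 4 arrays per label. Filled points passed the limma test, and the numbers at the right give how many of the 8 arrays reached the 20th percentile. The 5 filled points, for TIE1, PECAM1 (2 probe sets), EDN1 and CD34, all lie below 0, and the widest error bars belong to probe sets that reach the percentile on few arrays.

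PECAM1, the adhesion molecule at the contacts between endothelial cells, had the largest difference among the 6 genes above the limit on every array. Its brighter probe set had intensities of 208, 252, 306 and 247 in 7-day-old arrays, against 883, 693, 823 and 883 in 3-day-old arrays. The groups were far apart, since the highest 7-day-old value was well under the lowest 3-day-old value. The means were 253 ± 40.2 in 7-day-old and 820 ± 89.5 in 3-day-old arrays (SD, n = 4 each), a log2 difference of -1.70 (SE 0.142, limma adjusted p = 0.00331), or 3.26-fold lower in 7-day-old arrays. The second probe set, annotated to the same transcript record, gave 80.4, 119, 124 and 139 in 7-day-old arrays, against 338, 299.8, 294 and 251 in 3-day-old arrays. Here too no values overlapped, with a log2 difference of -1.38 (SE 0.184, limma adjusted p = 0.00739), 2.59-fold lower in 7-day-old arrays. The 2 probe sets thus had the same direction, and the difference between their log2 differences, -0.33 (SE 0.177), did not pass an exact permutation test (two-sided, p = 0.114).

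CD34, the surface sialomucin that marks capillary endothelium, differed by far less than PECAM1. Its probe set gave 114, 120.3, 124 and 134 in 7-day-old arrays, against 176, 149, 165 and 180 in 3-day-old arrays. The groups did not overlap and the values within each were close together. The log2 difference was -0.44 (SE 0.0968, limma adjusted p = 0.0298), 1.36-fold lower in 7-day-old arrays. The call rests on the full set of arrays, since it was lost when any of 6 arrays was left out, which were 3-day-old replicates 1, 3 and 4 and 7-day-old replicates 1, 2 and 3, with adjusted p between 0.0583 and 0.0802. It was also lost when the variance was let to follow intensity (limma adjusted p = 0.0629).

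TIE1, the orphan receptor that pairs with TEK, was near the lower end of the scale. Its intensities were 2.74, 9.67, 3.79 and 8.82 in 7-day-old arrays, against 60.03, 50.4, 53.1 and 70.3 in 3-day-old arrays. It reached the 20th percentile on 0 of the 4 7-day-old arrays and on all 4 of the 3-day-old arrays, so the 7-day-old values give an upper bound rather than a level. The fitted log2 difference of -3.41 (SE 0.416, limma adjusted p = 0.0061) depends on how low values are treated. With every value under the 20th percentile raised to it, the difference was -1.05 (2.07-fold lower in 7-day-old arrays, limma adjusted p = 0.00257). A probe set under the percentile on all arrays has -0.11 on this scale, since the percentile itself was lower on average in the 7-day-old arrays. It was lower in 7-day-old replicates 1, 2 and 4, but in 7-day-old replicate 3 it was the highest of all arrays (31.3). For TIE1 an offset of 16 before the logarithm gave -1.75.

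TEK, the angiopoietin receptor, was read above the 20th percentile by only 1 of its 3 probe sets. This had 2.80, 12.6, 32.02 and 27.99 in 7-day-old arrays, against 59.8, 55.9, 58.3 and 63.7 in 3-day-old arrays. No values overlapped, but the 7-day-old arrays were spread widely, with only 2 of them at the 20th percentile. The difference of -2.15 (SE 0.721, limma adjusted p = 0.101) did not pass, whereas it passed with low values raised to the percentile (-1.05, 2.08-fold lower in 7-day-old arrays, adjusted p = 0.00144) and with the offset of 16 (-1.21, adjusted p = 0.0262). It also passed when the variance followed intensity (adjusted p = 0.0484). The other 2 probe sets of TEK lay between 0.859 and 23.7 in 7-day-old arrays and between 0.542 and 25.6 in 3-day-old arrays and had no measurable level.

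KDR, the main signalling receptor for VEGF, gave no usable difference. The better of its 2 probe sets had 5.79, 1.54, 55.1 and 40.4 in 7-day-old arrays, against 32.1, 35.3, 52.6 and 1.88 in 3-day-old arrays. Values at the bottom of the scale occurred under both labels, and the log2 difference of -0.62 had a standard error of 1.46 (limma adjusted p = 0.824). The second probe set lay between 5.14 and 24.0 in 7-day-old arrays and between 4.61 and 40.3 in 3-day-old arrays, with a difference of -0.45 (SE 0.862, adjusted p = 0.781). At this signal a change of several fold in either direction could not have been detected.

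FLT1, the VEGF receptor that also serves as a decoy, reached the 20th percentile on all 8 arrays with 1 of its 3 probe sets. It gave 53.9, 28.5, 51.2 and 56.1 in 7-day-old arrays, against 42.4, 58.9, 92.6 and 42.7 in 3-day-old arrays. The groups overlapped, with the lowest value in 7-day-old replicate 2 and the highest in 3-day-old replicate 3. The log2 difference was -0.29 (SE 0.319, limma adjusted p = 0.609). A second probe set reached the percentile on 1 array and gave 0.71 (SE 0.941, adjusted p = 0.676), and the third reached it on none.

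Of the tested ligands of these receptors only ANGPT2 passed with limma. Of 12 symbols listed for VEGF and angiopoietin signalling 5 had a probe set and 4 were tested, with 1 lower, against 7.15% of all genes tested, 0 higher and a median log2 difference of -0.22. ANGPT2, the angiopoietin stored by endothelial cells themselves, had 110.3, 132, 150.2 and 103 in 7-day-old arrays, against 181, 193, 210 and 175 in 3-day-old arrays (log2 difference -0.63, SE 0.138, limma adjusted p = 0.0307). Its groups did not overlap, but omission of any of 6 arrays removed the call (adjusted p at most 0.0806). ANGPT1, another angiopoietin, reached the 20th percentile on only 4 arrays. Its difference of -0.77 (SE 0.706, limma adjusted p = 0.528) did not pass, which says little at this signal. VEGFA, the main ligand of KDR, was read by the brightest of its 4 probe sets. It lay between 3828 and 4486 in 7-day-old arrays and between 3333 and 4063 in 3-day-old arrays, a difference of 0.19 that did not pass (limma adjusted p = 0.252). VEGFB, a ligand of FLT1 that was singled out after its values were seen, was above all 3-day-old values in each 7-day-old array, with a difference of 0.32 that did not pass with limma (adjusted p = 0.0569) and did with the methods' t-test (adjusted p = 0.0331).

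ENG, the co-receptor for TGF-beta and BMP ligands that is abundant on growing vessels, gave 133, 108, 101 and 122 in 7-day-old arrays, against 129, 237, 221 and 216 in 3-day-old arrays. The 7-day-old arrays lay together, and 3 of the 3-day-old arrays lay above them, whereas 3-day-old replicate 1 fell among the 7-day-old values. The log2 difference of -0.76 (SE 0.206, limma adjusted p = 0.0576) did not pass. Without 3-day-old replicate 1 it was -0.96 and passed (limma adjusted p = 0.0159), and it also passed when the variance followed intensity (adjusted p = 0.0251), with the offset of 16 (adjusted p = 0.0463) and with low values raised to the percentile (adjusted p = 0.0380).

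Around ENG, 8 of 16 listed ligands, receptors and targets of the TGF-beta and BMP pathway were tested, of which 4 were lower, against 7.15% of all genes tested, and 0 were higher. A negative difference was found in 7 of the 8, against 53.4% of all genes (median -0.79). ID3 and ID1, inhibitors of differentiation that are direct targets of BMP signalling in endothelium, were both lower. ID3 had 581, 475, 679 and 672 in 7-day-old arrays, against 1274, 1089, 1495 and 1167 in 3-day-old arrays (log2 difference -1.07, SE 0.154, limma adjusted p = 0.00879). ID1 had 847, 657, 978 and 953 in 7-day-old arrays, against 1975, 1464, 1942 and 1455 in 3-day-old arrays (-0.99, SE 0.173, adjusted p = 0.0153). Neither gene's groups overlapped, and in both the lowest 7-day-old value was that of replicate 2. The ligand TGFB1 was lower by its brighter probe set (-1.24, adjusted p = 0.00991) and by the other (-0.88, adjusted p = 0.0219), whereas for the ligand TGFB3 the brighter passed (-0.58, adjusted p = 0.0277, lost on omission of any of 6 arrays) and the other did not (-0.11, adjusted p = 0.814). TGFBR1, a type I receptor, had 0.18 (adjusted p = 0.414).

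VWF, the platelet-capturing glycoprotein that endothelial cells store, was close to the limit in both groups. Its best probe set had 35.3, 47.7, 37.4 and 31.5 in 7-day-old arrays, against 16.8, 66.7, 17.2 and 48.3 in 3-day-old arrays. All 4 of the 7-day-old arrays and 2 of the 3-day-old arrays reached the 20th percentile, and the 3-day-old values lay on both sides of the 7-day-old ones. The log2 difference was 0.27 (SE 0.473, limma adjusted p = 0.757), and a second probe set that reached the percentile on 1 array gave -0.02 (SE 0.772, adjusted p = 0.991).

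Of 10 other genes of clotting listed around VWF, not all of them endothelial, 7 were tested, with 3 lower, against 7.15% of all genes tested, 0 higher and a median of -0.66. THBD, thrombomodulin, the endothelial receptor that turns thrombin towards protein C, had 61.8, 52.4, 41.0 and 28.1 in 7-day-old arrays, against 299, 172, 195 and 158 in 3-day-old arrays. These groups were widely separated, at a log2 difference of -2.18 (SE 0.293, limma adjusted p = 0.00739), 4.54-fold lower in 7-day-old arrays. PLAT, tissue plasminogen activator, was lower by -0.71 (SE 0.126, adjusted p = 0.0161). F3, tissue factor, which starts coagulation and is made mostly by cells outside the vessel lining, was lower by -0.63 (SE 0.144, adjusted p = 0.0344), a call that omission of any of 6 arrays removed (adjusted p at most 0.0876). SELP, which is stored with VWF, had -0.66 and did not pass (adjusted p = 0.103).

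EDN1, the precursor gene of endothelin-1, was lower in the 7-day-old arrays. It gave 328, 279, 316 and 302 in 7-day-old arrays, against 652, 499.6, 448 and 466 in 3-day-old arrays. The groups did not overlap, and 3-day-old replicate 1 stood above the other 3. The means were 306 ± 21.1 in 7-day-old and 516 ± 93.1 in 3-day-old arrays (SD, n = 4 each), and the log2 difference was -0.74 (SE 0.135, limma adjusted p = 0.0177), 1.67-fold lower in 7-day-old arrays. The call was lost only without 7-day-old replicate 2 (adjusted p = 0.0542) among the 8 arrays left out in turn.

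EDNRB, the endothelin receptor that on endothelium triggers release of nitric oxide, was not shown to differ. Its brighter probe set had 90.1, 72.0, 119 and 118 in 7-day-old arrays, against 125, 146, 158 and 89.2 in 3-day-old arrays. The groups overlapped through 3-day-old replicate 4, and the log2 difference was -0.37 (SE 0.234, limma adjusted p = 0.346). The second probe set reached the percentile on 2 arrays and gave 0.94 (SE 0.611, adjusted p = 0.368). Of the 5 other genes listed for the endothelin system 2 were tested and neither passed with limma or the methods' t-test (1 at an unadjusted p below 0.05, EDNRA). EDNRA, the receptor of smooth muscle, had 122, 80.9, 134 and 125 in 7-day-old arrays, against 140.3, 144, 184 and 188 in 3-day-old arrays, without overlap but with an adjusted p of 0.123 (log2 difference -0.52, SE 0.189). ECE1, the enzyme that releases the active peptide, had -0.25 (SE 0.234, adjusted p = 0.541).

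The differences of PECAM1 were set against those of the other endothelial genes array by array. For the 7 probe sets above the limit on all arrays, the log2 ratio of each pair was taken within each array, which removes any factor common to an array, and the ratios of the 4 7-day-old and the 4 3-day-old arrays were compared by exact permutation tests (two-sided, 21 pairs, smallest possible p 0.0286). In 7 pairs the ratios did not overlap and the test gave this smallest p, which is 0.0857 after Benjamini-Hochberg adjustment, so 0 of the 21 pairs passed. With 4 arrays per label a few pairs could not pass at all, since many more would have to share the smallest p. All 7 pairs set a PECAM1 probe set, already seen to have the largest differences, against another gene. The log2 ratio of the brighter PECAM1 probe set to CD34 was 1.03 ± 0.20 in 7-day-old arrays and 2.29 ± 0.0477 in 3-day-old arrays (SD, n = 4 each), a difference of -1.26 (SE 0.103). Against EDNRB the difference was -1.33 (SE 0.289), against FLT1 -1.42 (SE 0.406) and against EDN1 -0.96 (SE 0.186), each at the smallest exact p. Against ENG it was -0.95 (SE 0.325, exact p = 0.0571) and the ratios overlapped. Among the pairs without PECAM1, ENG and EDN1 were closest, with a difference of -0.02 (SE 0.328, exact p = 1). These ratios are a description, and a ratio within an array gives no order of RNA amounts between genes.

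**Figure D3:**
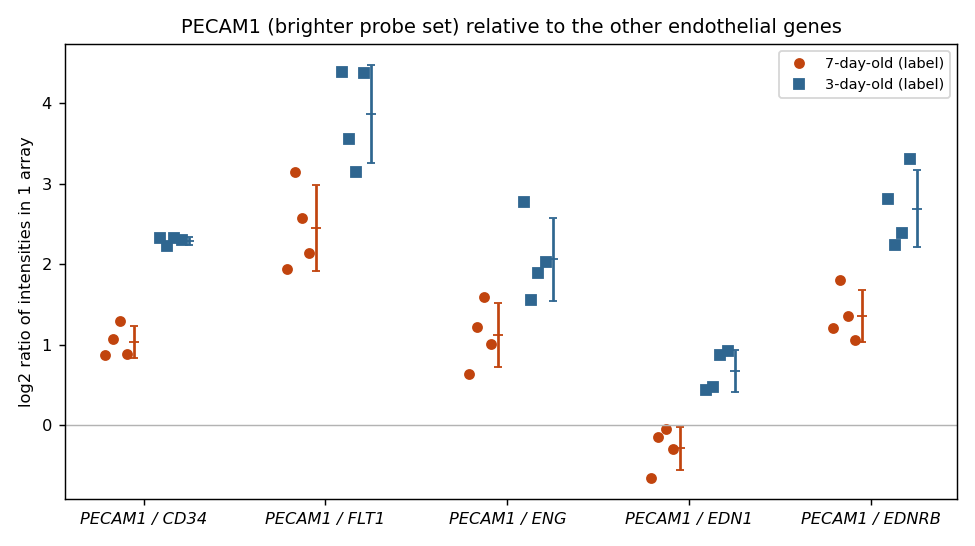
Log2 ratio, within each array, of the brighter PECAM1 probe set to each other gene above the 20th percentile on all arrays, for 4 arrays labelled 7-day-old (circles) and 4 labelled 3-day-old (squares), with mean and SD beside the points. The ratio to CD34 was 1.03 in 7-day-old and 2.29 in 3-day-old arrays, and only the ratio to ENG overlapped between the labels.

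The arrays of each label also differed among themselves. Measured as the mean deviation of the 7 probe sets from their group means, 7-day-old replicate 2 was lowest of its group at -0.19 on the log2 scale (5 of 7 below the mean) and 7-day-old replicate 4 highest at 0.15 (5 of 7 above), while in 7-day-old replicate 3 the mean was 0.10 and 6 of 7 were above. In the 3-day-old group replicate 3 was highest at 0.15 and replicate 4 lowest at -0.13. Single probe sets went up to 0.72 above their group mean (in 3-day-old replicate 3) and 0.68 below it (in 7-day-old replicate 2).

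Most genes of the wider vessel lists also had a negative difference, and fewer of them passed the test. In 8 lists with 99 symbols (VEGFD stands in them under both its names), 57 had a probe set and 54 were tested, each by its brightest probe set. Of these 20 were lower in 7-day-old arrays, against 7.15% of all 6545 genes tested, and 0 were higher, against 5.03% (1 at an unadjusted p below 0.05, VEGFB). The methods' t-test gave 18 lower and 1 higher. The difference was negative in 46 of the 54, against 53.4% of all genes, with a median of -0.60 against -0.02 over all genes. In 27 of the 54 every 7-day-old value lay below every 3-day-old value and in 1 above. Among all probe sets, dim ones included, 10.3% and 10.9% did so. These shares count probe sets rather than genes, so they are only a rough measure for the 54. The count of 20 was 12 without 3-day-old replicate 3, 11 without 7-day-old replicate 2 and 13 without either 3-day-old replicate 1 or 2.

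Among other endothelial markers, 6 of the 16 tested were lower, against 7.15% of all genes tested. A negative difference was found in 14 of them, against 53.4% of all genes (median -0.84). CDH5, the VE-cadherin of endothelial junctions, had 149, 149, 170 and 140.5 in 7-day-old arrays, against 334, 256, 590 and 526 in 3-day-old arrays. The groups were apart, although the 3-day-old arrays varied by more than the 7-day-old ones, with a log2 difference of -1.41 (SE 0.264, limma adjusted p = 0.0192) that was lost without 7-day-old replicate 1 or 2 (adjusted p = 0.0529 and 0.0551). Its second probe set gave -1.12 (adjusted p = 0.0282). MCAM, an adhesion molecule of endothelium and pericytes, had 148, 142, 150.1 and 161 in 7-day-old arrays, against 271, 316, 324 and 294 in 3-day-old arrays (-1.001, SE 0.0903, adjusted p = 0.00385), and its second probe set gave -1.31 (adjusted p = 0.00631).

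CAV1, the caveolin of endothelial and stromal membranes, had 349.7, 396, 351 and 388 in 7-day-old arrays, against 1296, 958, 1171 and 823 in 3-day-old arrays. No values overlapped (log2 difference -1.50, SE 0.152, limma adjusted p = 0.00469), whereas its 2 dimmer probe sets gave -0.86 (adjusted p = 0.0952) and -0.53 (adjusted p = 0.467) and did not pass. S1PR1, the receptor for sphingosine 1-phosphate that keeps vessels tight, was lower by -0.60 (adjusted p = 0.0190) in its brightest probe set, a call that was lost when 7-day-old replicate 2 or 3-day-old replicate 3 was omitted. Its other 2 probe sets gave -1.58 (adjusted p = 0.00649) and -1.05 (adjusted p = 0.0669). EGFL7 and CD93, each read by the 1 probe set that the annotation used gives its symbol alone, were the only tested markers of this list with a difference above 0, at 0.25 (adjusted p = 0.219) and 0.00611 (adjusted p = 0.970), and neither passed. The study's own list of changed genes names a further probe set for CD93, which was not read here, so the value of CD93 is that of 1 probe set only.

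**Figure D4:**
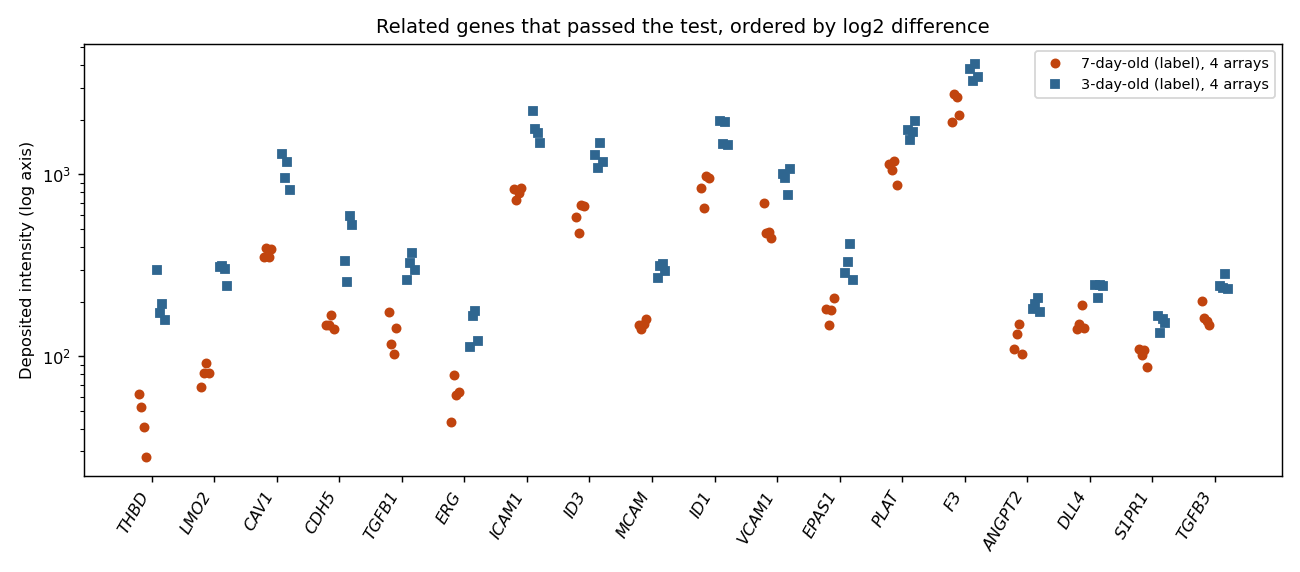
Deposited intensity (log axis) of the 18 named genes from the wider vessel lists that passed the limma test, in 4 arrays labelled 7-day-old (circles) and 4 labelled 3-day-old (squares), ordered by log2 difference. For each gene all circles lie below all squares, from THBD (-2.18) and LMO2 (-1.87) at the left to genes near -0.60 at the right.

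Of 15 transcription factors of endothelium 8 were tested, with 3 lower, against 7.15% of all genes tested, and a median of -0.50. LMO2, a LIM-domain adaptor of blood and endothelial precursors, had 67.8, 80.6, 92.2 and 81.0 in 7-day-old arrays, against 310, 316, 303 and 243 in 3-day-old arrays. It did not overlap between the labels and was 3.64-fold lower in 7-day-old arrays (log2 difference -1.87, SE 0.131, limma adjusted p = 0.00288). ERG, an ETS factor that maintains endothelial identity, had 43.7, 79.3, 61.6 and 63.9 in 7-day-old arrays, against 113, 167, 177 and 121 in 3-day-old arrays (-1.22, SE 0.224, adjusted p = 0.0180), and lost its call without 3-day-old replicate 2 or 3 (adjusted p = 0.0526 and 0.0505). EPAS1, the hypoxia-inducible factor 2 alpha subunit, was lower by -0.84 (adjusted p = 0.0234), a call removed by omission of any of 4 arrays (adjusted p at most 0.0642). KLF2, a factor induced by blood flow, reached the percentile on 5 arrays and had 0.27 (adjusted p = 0.776).

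Of the Notch and ephrin genes that distinguish arteries from veins, all 7 tested had a negative difference (median -0.35), against 53.4% of all genes, and 1 of them passed, against 7.15% lower among all genes. The differences ran up to that of HES1, a Notch target, at -0.00324 (adjusted p = 0.990). DLL4, the Notch ligand of arterial and sprouting endothelium, had 141, 151, 192 and 142 in 7-day-old arrays, against 247, 208, 248 and 242 in 3-day-old arrays (log2 difference -0.60, SE 0.126, limma adjusted p = 0.0266), and lost its call on omission of any of 6 arrays (adjusted p at most 0.0725). JAG1, another Notch ligand, had -0.43 (adjusted p = 0.0651), and the arterial EFNB2 had -0.48 (adjusted p = 0.0939). Of the short list of leukocyte adhesion molecules, both tested genes, ICAM1 and VCAM1, were lower, against 7.15% of all genes tested. ICAM2 (-1.49, limma adjusted p = 0.124) and SELP, adhesion molecules of other lists, did not pass. ICAM1 had 828, 721, 791 and 846 in 7-day-old arrays, against 2242, 1777, 1683 and 1488 in 3-day-old arrays (-1.16, SE 0.136, adjusted p = 0.00591). VCAM1 had 695, 476, 484 and 449 in 7-day-old arrays, against 1009, 950.1, 767 and 1073 in 3-day-old arrays (-0.86, SE 0.172, adjusted p = 0.0224), and was lost on omission of any of 5 arrays (adjusted p at most 0.0654). Both are also made by stromal cells.

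Some markers of the cells around vessels were also lower. Of 7 pericyte and smooth muscle markers 3 were lower (RGS5 -1.42, PDGFRB -1.17, TAGLN -0.74), against 7.15% of all genes tested, while ACTA2 (-0.29), CNN1, DES and MYLK did not pass. The probe set read for MYLK reached the 20th percentile on only 1 array (-0.36, SE 0.806), so it hardly measured MYLK. The study's own list of changed genes names another probe set for MYLK, which was not read here. All 7 markers, MYLK included, had a negative difference, against 53.4% of all genes. Their summed intensities were 3008 to 3783 in 7-day-old arrays and 4820 to 8656 in 3-day-old arrays. Of 8 fibroblast and stellate markers 4 were lower (DCN -2.05, FAP -0.99, THY1 -0.90, COL1A2 -0.71), against 7.15% of all genes tested. LUM, FN1, SPARC and COL3A1 (0.11) did not pass. The fibroblast sums were 24847 to 29745 in 7-day-old arrays and 34657 to 42930 in 3-day-old arrays. SPARC and FN1 made up 81.1% to 90.2% of the fibroblast sum. Without the 2 brightest markers of each list, a choice made after the values were seen, the sums were 2515 to 4451 in 7-day-old and 5596 to 6961 in 3-day-old arrays for fibroblast markers, and 1072 to 1466 in 7-day-old and 2344 to 2889 in 3-day-old arrays for pericyte markers. None of these ranges overlapped between the labels, and the part of these cells in the differences of CD34, CAV1, MCAM and the other shared genes was not tested.

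Blood cell markers gave less. Of 7 leukocyte markers 0 passed in either direction with limma or with the methods' t-test (at an unadjusted p below 0.05, 1 was lower, CD14, and 1 higher, ITGB2), with sums of 510.2 to 568 in 7-day-old arrays and 418 to 1021 in 3-day-old arrays, and PTPRC, the common leukocyte antigen, reached the 20th percentile on 1 array. For 4 platelet and megakaryocyte markers the sums were 491 to 648 in 7-day-old arrays and 744 to 974 in 3-day-old arrays. Of these markers 1 was lower, against 7.15% of all genes tested. That 1 was the integrin gene ITGB3 (-1.57, limma adjusted p = 0.00623), which endothelium also uses, while its platelet partner ITGA2B had -0.03 (adjusted p = 0.944) and GP9 had -0.03 (adjusted p = 0.879). The 2 erythroid markers tested did not pass (HBB 0.25, ALAS2 -0.68).

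Endocrine genes had the opposite sign where they passed. Of 10 islet endocrine genes tested 0 were lower in 7-day-old arrays (0 at an unadjusted p below 0.05, and 0 by the methods' t-test) and 4 were higher (NEUROD1 1.39, PCSK2 1.11, CHGB 0.70, PCSK1 0.59), against 5.03% of all genes, with a median of 0.40 and sums of 135527 to 170201 in 7-day-old arrays and 120931 to 149807 in 3-day-old arrays. INS (-0.07) and GCG (-0.19) did not pass. Of 7 duct markers 1 was lower (KRT19, -0.83), against 7.15% of all genes. The methods' t-test gave 3 lower and an unadjusted p below 0.05 gave 4, counts without a share of all genes beside them. All 7 differences were negative, against 53.4% of all genes, and some were small (EPCAM -0.06). Of 4 acinar markers 1 was lower by both tests (CPB1, -1.56), against 7.15% of all genes with limma. Another 2 were higher at an unadjusted p below 0.05 (CELA1 and AMY2). Of 4 neural and Schwann markers 2 were lower (GFAP -1.38, S100B -0.67), against 7.15% of all genes, but 0 by the methods' t-test. The part of a changed share of endocrine cells in the endothelial differences was not tested.

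**Figure D5:**
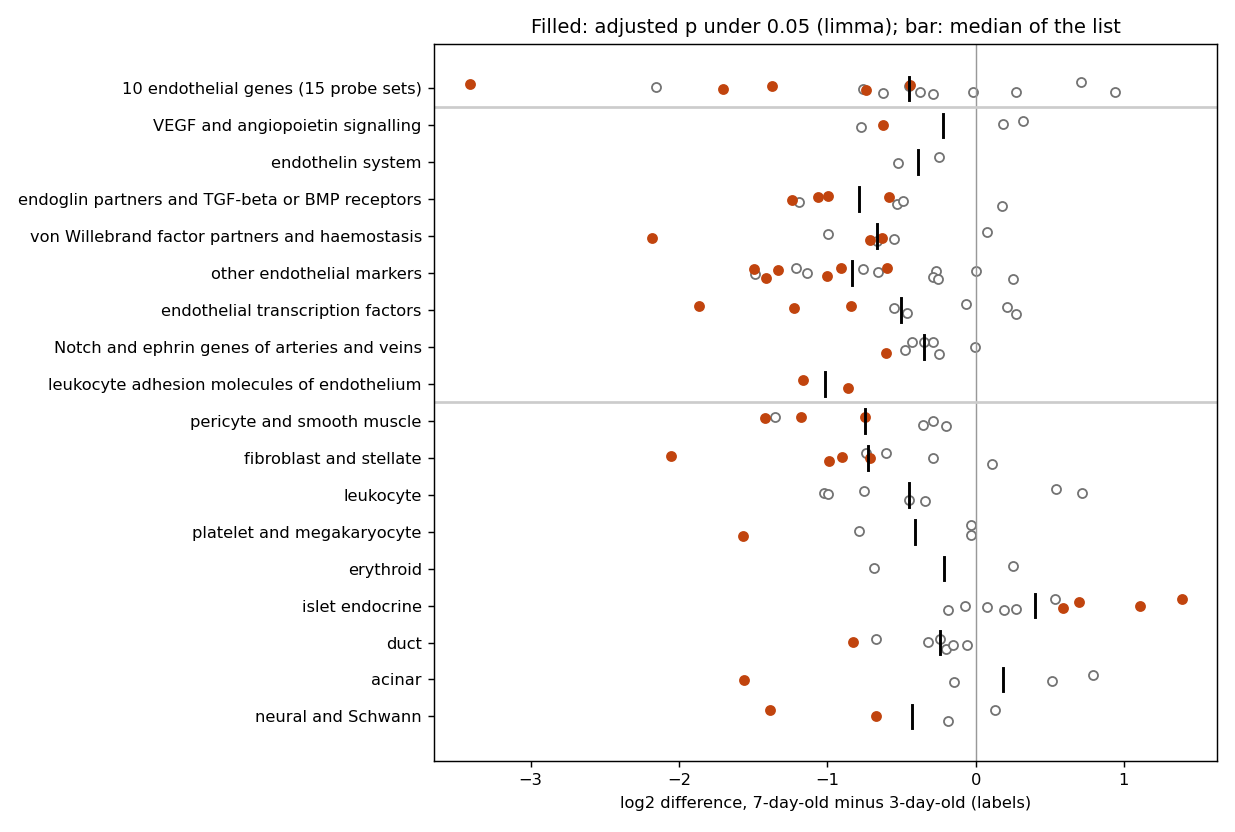
Log2 difference, 7-day-old minus 3-day-old, of the 15 member probe sets (top), of the genes of 8 vessel lists (middle) and of 9 marker lists of cell types (bottom), 1 point per probe set or gene and a bar at the median. Filled points passed the limma test. The filled points of the vessel, pericyte and fibroblast lists lie below 0, and the 4 filled islet endocrine points lie above 0.

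The genes whose pattern over the 8 arrays was most like that of each bright member were found by the root mean square of the difference between centred log2 values, among 7990 or 7991 probe sets of other genes above the limit on all arrays. For the brighter PECAM1 probe set they were LOC100523870 (0.189), LMO2 (0.203) and ITGB3 (0.204), and for the other STC1 (0.194), CAV2 (0.205) and TMEM2 (0.207). The nearest genes of EDN1 were NFKBIA (0.107), EML3 (0.115) and EXT1 (0.127), and those of ENG were BGN (0.140), C4A (0.143) and LOC100512977 (0.150). For CD34, whose values varied least, they were STX4 (0.0580), CASP6 (0.0741) and CTSV (0.0806). The nearest of FLT1 were PDZRN3 (0.206), UBE2QL1 (0.224) and PLEKHA8 (0.243), and of EDNRB they were ADIPOR2 (0.150), SLC39A1 (0.157) and FAM8A1 (0.164). None of these nearest genes was itself 1 of the 10, and only LMO2 stood in a vessel list.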

How the data were processed

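Islet RNA of 8 pigs, 4 labelled 7-day-old and 4 labelled 3-day-old, was measured on the Affymetrix porcine GeneChip, with group and replicate number taken from the deposited labels. Per the methods, samples with little cRNA were amplified once more, and these samples are not named. The deposited values are linear intensities of 24123 probe sets, which the authors brought to 1 common level, a mean of 500.1 in every array once 2% of values at each end are trimmed. Which software summarised the probe sets is not given in the sources used. The median normalization per probe set that the methods describe had not been applied to these values.

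Intensities below 1 were set to 1 and log2 was taken. Controls were left out, and probe sets at or above the 20th percentile on at least 1 of the 8 arrays were tested. Of 23999 probe sets 10069 had 1 symbol, 198 had several and named no gene, and 13732 had none. All 10 Entrez identifiers of the members matched the RefSeq gene table. The groups were compared with R 4.3.3 and its package limma 3.58.1 (eBayes after lmFit, no covariates, two-sided, Benjamini-Hochberg over all probe sets tested, threshold 0.05), after tests on simulated data. Each gene of a list was read by its probe set with the highest mean. Ratios, likeness and figures were computed in Python 3.11.15 (pandas 2.3.3, numpy 2.4.6, statsmodels 0.14.6, scipy 1.17.1, matplotlib 3.10.9). No test was made on a list as a whole.

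Named are all member probe sets, up to 4 passed genes of each vessel list (lowest adjusted p first, or 2 at most in a list without any), and the 3 nearest genes of each member above the percentile on all arrays; other genes named beside them were picked after their values were seen. The members and lists were chosen with earlier results of these data known. Alternatives were no filter, a stricter filter (50th percentile on at least 4 arrays), an intensity trend with robust variances, the methods' t-test, median centring, quantile normalization, array quality weights, an offset of 16, low values raised to the percentile, the mean of a gene's probe sets, the replicate number as a block, and each array left out. Precision is limited by the number of arrays, and the standard error of a log2 difference was 0.169 in the median. No genome was used, so no positions are given.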

Additional observations from a re-analysis of the deposited data

Results flagged for a closer look

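In 6 of 78 groups of 4 arrays tested among the named genes, 1 array stood apart from the other 3 by Dixon's criterion, which chance alone meets in about 1 of 20 groups. None of these values was left out of the comparison.

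Of the member genes, FLT1, by its best probe set, was at 28.5 in 7-day-old replicate 2, against 51.2 to 56.1 in the other 7-day-old arrays. ENG was at 129 in 3-day-old replicate 1, against 216 to 237 in the other 3-day-old arrays, and this is the array without which the ENG difference passed. KDR, by its best probe set, was at 1.88 in 3-day-old replicate 4, against 32.1 to 52.6 in the other 3-day-old arrays, where the 20th percentile of the array was 31.0. Of the genes of the vessel lists, TGFB3 was at 285 in 3-day-old replicate 3, against 235 to 242 in the other 3-day-old arrays. LMO2 was at 243 in 3-day-old replicate 4, against 303 to 316 in the others. DLL4 was at 208 in 3-day-old replicate 2, against 242 to 248 in the others. Different arrays were concerned, with 3-day-old replicate 4 the only one that appeared for more than 1 gene.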

How the results depend on the processing

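The count of member probe sets lower in 7-day-old arrays was 5, lay between 3 and 5 when each array was left out (3 without 7-day-old replicate 2), and was 6 with the intensity trend and 7 with the offset of 16 and with low values raised to the percentile. The stricter filter gave 3, since only 3 member probe sets remained in the test, and gave a median log2 difference of the members of -1.38, in place of -0.45. Leaving out each array moved this median between -0.71 (without 3-day-old replicate 4) and -0.31 (without 3-day-old replicate 2). No member was higher in any setting run. Both PECAM1 probe sets and TIE1 passed in each setting that tested them other than the replicate block (the stricter filter left TIE1 untested). Values that did not pass changed sign when an array was left out for both KDR probe sets (-1.72 to 0.36 and -0.99 to 0.05) and both VWF probe sets (-0.02 to 0.64 and -0.60 to 0.46).

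Arrays of the same replicate number were not paired, as their residuals correlated at only -0.0135 to 0.00487. With it as a replicate block, 0 probe sets of the whole array, 0 members and 0 genes of the vessel lists passed, where 5264 probe sets, 7 members (all lower) and 31 list genes had an unadjusted p below 0.05. Adjusted p under the block was 0.0576 and 0.0675 for PECAM1, 0.0576 for TIE1, 0.0696 for EDN1 and 0.101 for CD34.

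Over all probe sets 2305 passed, 3491 with the intensity trend, and 1008 to 1854 with each array left out, under 2305 by more than 1.5 times on omission of any of 7-day-old replicates 1, 2 and 4 and 3-day-old replicates 2 and 3. Of the vessel list genes 20 passed in either direction, 19 with the mean of a gene's probe sets, 26 with the intensity trend, and 11 to 17 with each array left out. Of the 18 named list genes that passed, 9 kept the call whichever array was left out. Probe sets near the 20th percentile, those of TIE1, TEK, KDR and VWF, are limited by signal, and the size of their differences depends on how low values are treated.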
